A study of Mus musculus with 6 samples.

Results

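Imprinted genes of fetal growth were examined in embryonic mouse hearts at E12.5, in arrays labelled Rhau KO and arrays labelled wildtype. The 10 genes are H19, Dlk1, Meg3, Cdkn1c, Grb10, Peg3, Mest, Plagl1, Ndn and Peg10, and a gene's members were all probe sets whose platform annotation names that gene and no other. This gave 35 probe sets for 9 of the 10 genes, out of 34945 probe sets that name 1 of 18193 genes. The only probe set that names H19 also names Mir675, so H19 has no value here. Of the 35 probe sets 28 lay above the filter on low signals, a mean log2 signal of 5.90 over all arrays, and were tested, in 8 genes. The other 7 lay below it, namely 6 probe sets of Dlk1, Peg3 and Ndn and the only one of Peg10, a gene derived from a retrotransposon that the mouse placenta needs. Peg10 read 5.03, 4.91 and 5.25 in the arrays labelled Rhau KO and 4.38, 5.002 and 4.62 in those labelled wildtype, which overlap.

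The study set hearts of Rhau-deletion embryos, 3 arrays, against control hearts, 3 arrays, all on the C57BL/6 strain, with RNA of dissected hearts on Affymetrix 3' arrays. Rhau is the former name of Dhx36, a helicase that unwinds guanine quadruplexes. The labels give neither the deleted part of the gene nor the cell type or promoter of the deletion, and do not say how many hearts an array holds. The p-values therefore measure the spread between arrays. All values are log2 signals, differences are arrays labelled Rhau KO minus arrays labelled wildtype, and a probe set is called at an adjusted p under 0.05 (limma, Benjamini-Hochberg over 27022 probe sets).

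Imprinted genes are transcribed from only 1 parental allele, chosen by DNA methylation that is laid down in the germ line. Several that are active on the paternal allele, such as Igf2, Dlk1, Peg3, Mest and Plagl1, favour fetal or placental growth, and several that are active on the maternal allele, such as Cdkn1c, Grb10 and H19, restrain it. They lie in clusters in which a long non-coding RNA often shares a control region with coding neighbours, and many are abundant in embryonic mesoderm and decline after birth. The arrays do not tell the alleles apart.

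Some properties of the arrays bear on every difference below. All 3 Dhx36 probe sets were higher, by 1.41, 1.10 and 0.90 (limma, adjusted p = 3.35e-05, 0.000267 and 0.000186), in the arrays that carry the deletion label. This goes against that label, whether the probe sets lie in the deleted part is not given, and every direction here is that of the labels as deposited. Y-linked signal is the mean over Eif2s3y, Kdm5d and Uty of the linear signal, with each gene's strongest array set to 100%. It was 59.6, 82.8 and 100 in the arrays labelled Rhau KO and 1.23, 2.04 and 39.3 in those labelled wildtype. Xist, scaled in the same way, was 61.1, 35.8 and 0.232 in the arrays labelled Rhau KO and 100, 98 and 77.2 in those labelled wildtype. Every array labelled Rhau KO thus had more Y-linked signal and less Xist than every array labelled wildtype. Effects of the label and of embryo sex cannot be told apart here. The 3 arrays Rhau KO replicates 1 and 2 and wildtype replicate 3 carried Xist as well as Y-linked transcripts and are called mixed below. All 14 cardiac muscle marker genes were measured and none was at 0, with Tnnt2 and Actc1 the brightest. Red blood cell markers were lower on 10 of 16 tested probe sets, with a summed linear signal of 71391 to 89356 in the arrays labelled Rhau KO and 93593 to 100018 in those labelled wildtype. Beside the counts in this paragraph, 6.75% of all tested probe sets were called higher and 6.88% lower. Endothelial markers were higher on 7 of 24 (16923 to 18059 in Rhau KO arrays and 14867 to 15815 in wildtype arrays). These calls fell on Cdh5, Kdr, Tie1, Sox18 and Npr3 (0.41, 0.59 and 0.58), while the brightest genes, Emcn and Tek, differed by -0.03 and 0.12 without a call. Neural crest and neuron markers were higher on 7 of 9 (4583 to 4833 in Rhau KO arrays and 2983 to 3119 in wildtype arrays) and macrophage markers on 2 of 14 (3920 to 4833 in Rhau KO arrays and 2797 to 3113 in wildtype arrays). The macrophage calls were for Lyz2, by 2.98, and Mrc1, by 0.43, while the brightest gene, Csf1r, differed by 0.04 on its brightest probe set, so the sum moved mainly with Lyz2. The 7 neural calls fell on Ednrb, Elavl4 and Gap43, and the other tested probe sets, of Sox10 and Tubb3, differed by 0.04 and -0.38. Cardiac muscle markers were lower on 5 of 26 (300232 to 345395 in Rhau KO arrays and 343792 to 355817 in wildtype arrays). Epicardial markers were lower on 2 of 15 (9493 to 10425 in Rhau KO arrays and 10538 to 11557 in wildtype arrays). Both were of Krt8, and the differences of the 15 ran from -0.67 to 0.22. Skeletal muscle markers were lower on 3 of 4 (1687 to 2080 in Rhau KO arrays and 4353 to 5256 in wildtype arrays, with Myf5 listed at 0 in wildtype replicates 1 and 2). These calls were for Tnnt3, by -3.89, and Tnni2, by -0.89 and -0.83, while Actn3 differed by -0.21 without a call. Myod1, Myog, Myf5, Pax7 and Pax3 lay below the filter. Mesenchyme and matrix markers were higher on 3 of 23 and lower on 1 (66845 to 71318 in Rhau KO arrays and 68390 to 70300 in wildtype arrays). Liver markers (409 to 598 in Rhau KO arrays and 482 to 572 in wildtype arrays) were called by limma on 0 of 6, with 2 Ttr probe sets at an unadjusted p under 0.05. In bulk tissue fewer cells of a type and less RNA per cell cannot be told apart, and the part of these shifts in the results was not tested.

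Across the 28 tested probe sets, 6 rose and 1 fell in the arrays labelled Rhau KO, and 21 did not pass. The 6 belong to Cdkn1c, Plagl1, Grb10 and Meg3, and the 1 that fell to Peg3. Over all 27022 probe sets 6.75% were called higher and 6.88% lower, 13.6% in either direction. The median difference of the 28 was 0.14, and that of all tested probe sets 0.04. Groups did not overlap on 13 of the 28, 11 above and 2 below, where 33.9% of all tested probe sets had groups apart, 19.4% above and 14.5% below. Counted by gene, 4 of the 8 had a probe set called higher and 1 had one called lower, where 9.58% and 11.1% of all 12416 tested genes had one (20.5% in either direction); a gene with many probe sets has more chances of a call. The called changes were small, between 1.13-fold for Peg3 and 1.57-fold for Plagl1, and for Plagl1, Grb10 and Meg3 other probe sets of the same gene did not pass. When each gene was represented by its brightest probe set alone, Cdkn1c and Peg3 were the members called.

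**Figure D1:**
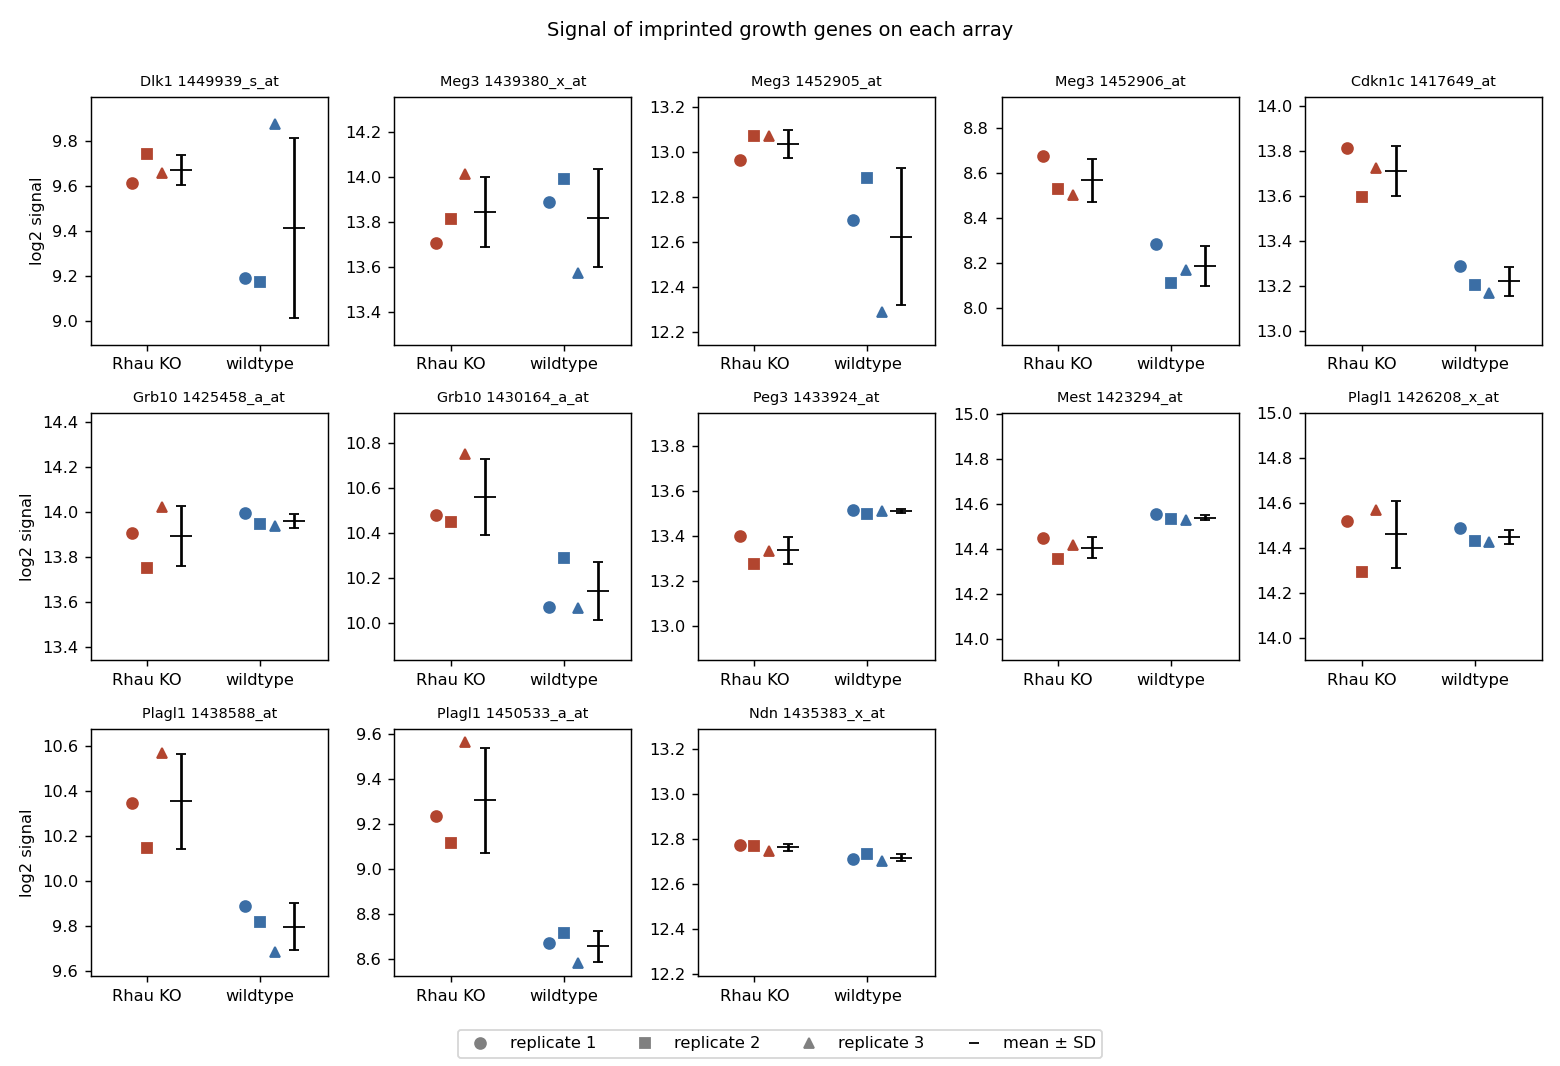
Log2 signal on each array for 13 probe sets, namely the brightest tested probe set of each of the 8 tested genes and every called one, with Rhau KO arrays at left and wildtype arrays at right (symbols are replicates, bars are mean ± SD, n = 3 each, and each panel has its own axis, which does not start at 0). Cdkn1c, Plagl1 1438588_at and 1450533_a_at and Grb10 1430164_a_at stand clear of the wildtype arrays, while the brightest Plagl1 and Grb10 probe sets overlap.

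Promoter sequences of members are shown because some imprints lie in methylated DNA near gene starts. Control regions farther from a start were not searched. The 250 bases before each start were read from RefSeq, build GRCm38.p6, which holds 7 of the 10 genes in 11 windows. They were searched on both strands for TGCCGC, the hexamer that ZFP57, the zinc finger protein that protects imprints, binds when methylated. It occurred in 4 of the 11 windows (Meg3, Plagl1 and the 2 overlapping windows at the downstream starts of Mest) and in 8.68% of all 32851 windows. Capitals mark it below, as its reverse complement, and each sequence runs 5′ to 3′ on the gene's own strand. The Meg3 window lies at chr12:109540746-109540995 (plus strand), the Plagl1 window at chr10:13090582-13090831 (plus strand) and the Mest window, which holds 2 copies, at chr6:30737800-30738049 (plus strand).
Meg3: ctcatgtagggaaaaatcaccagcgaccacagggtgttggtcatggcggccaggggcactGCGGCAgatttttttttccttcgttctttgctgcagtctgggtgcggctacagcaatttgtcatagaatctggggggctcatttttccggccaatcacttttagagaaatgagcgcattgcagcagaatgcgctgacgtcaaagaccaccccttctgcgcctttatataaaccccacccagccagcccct
Plagl1: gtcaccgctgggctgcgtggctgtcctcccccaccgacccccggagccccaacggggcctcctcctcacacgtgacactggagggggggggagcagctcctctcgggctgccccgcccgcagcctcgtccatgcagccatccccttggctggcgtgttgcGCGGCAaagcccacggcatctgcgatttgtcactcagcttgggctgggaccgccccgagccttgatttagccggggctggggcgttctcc
Mest: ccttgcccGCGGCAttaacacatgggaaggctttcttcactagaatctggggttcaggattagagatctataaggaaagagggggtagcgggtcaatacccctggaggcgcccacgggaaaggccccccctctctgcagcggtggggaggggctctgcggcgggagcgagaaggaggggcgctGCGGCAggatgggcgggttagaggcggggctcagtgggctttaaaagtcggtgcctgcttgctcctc
A second search asked for 4 runs of GGG with 1 to 7 N between runs, on either strand, the pattern from which guanine quadruplexes can form. It was found in 4 of the 11 windows (Dlk1, Peg3, 1 window of Meg3 and 1 of Grb10) and in 16.6% of all windows. The 3 sequences printed do not hold it. Such matches are letters in a window, and binding was not measured.

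Cdkn1c, which encodes the cyclin-dependent kinase inhibitor p57 and is active on the maternal allele, rose. Its single probe set read 13.82, 13.60 and 13.72 in the arrays labelled Rhau KO, against 13.29, 13.20 and 13.17 in those labelled wildtype. The lowest array labelled Rhau KO lay above the highest labelled wildtype. The difference was 0.49 (SE 0.0610), 1.41-fold in linear signal (adjusted p = 0.000686). The call was kept in each of the 6 fits that left out 1 array, at 0.44 to 0.55. With Y-linked signal as a covariate the difference was 0.65 with adjusted p = 0.0738.

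Plagl1, a zinc finger transcription factor active on the paternal allele that regulates other imprinted genes in the mouse, rose on 2 of 3 probe sets. Probe set 1450533_a_at read 9.23, 9.11 and 9.56 in the arrays labelled Rhau KO and 8.67, 8.72 and 8.58 in those labelled wildtype. Probe set 1438588_at read 10.35, 10.15 and 10.57 in the arrays labelled Rhau KO and 9.89, 9.82 and 9.68 in those labelled wildtype. On both, replicate 3 was the highest and replicate 2 the lowest of the arrays labelled Rhau KO, and the groups did not overlap. The differences were 0.65 (SE 0.118, adjusted p = 0.00538) and 0.56 (SE 0.104, adjusted p = 0.00607), 1.57-fold and 1.47-fold. Both calls were kept without any 1 array, and neither with the Y-linked covariate, at 0.52 (adjusted p = 0.470) and 0.57 (adjusted p = 0.358). In the 3 mixed arrays, of which a single one is labelled wildtype and is assumed to vary like the others, 1438588_at kept its call at 0.56 and 1450533_a_at lost it at 0.59. Without the variance trend 1438588_at lost its call (adjusted p = 0.0536) and 1450533_a_at kept it (adjusted p = 0.0408).

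The remaining Plagl1 probe set, 1426208_x_at, read 14.52, 14.29 and 14.57 in the arrays labelled Rhau KO and 14.49, 14.43 and 14.43 in those labelled wildtype. The groups overlapped, and the difference was 0.01 with a 95% interval of -0.14 to 0.16. Its signal lies near the top of the scale, where the brightest probe set averaged 15.16 and saturation was not tested, and the suffix x marks probes that may bind other transcripts. Across the table, 1368 of the 1609 genes that had several tested probe sets and any call were called in part only.

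Grb10, an adaptor protein that dampens insulin and IGF1 receptor signalling and is maternally active in most mouse tissues, rose on 1 of 3 probe sets. Probe set 1430164_a_at read 10.48, 10.45 and 10.75 in the arrays labelled Rhau KO, against 10.07, 10.29 and 10.07 in those labelled wildtype. The groups did not overlap, and the difference was 0.42 (SE 0.0945, 1.34-fold, adjusted p = 0.0162). The call was lost without wildtype replicate 1 (0.38) or wildtype replicate 3 (0.38), with the Y-linked covariate (0.33, adjusted p = 0.587), without the variance trend (adjusted p = 0.0844) and in the 3 mixed arrays (0.40). The brightest probe set, 1425458_a_at, read 13.90, 13.75 and 14.02 in the arrays labelled Rhau KO and 13.99, 13.95 and 13.94 in those labelled wildtype, also near the top of the scale. Its difference was -0.07 (95% interval -0.21 to 0.07), and that of 1425457_a_at was 0.11 (-0.18 to 0.39).

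**Figure D2:**
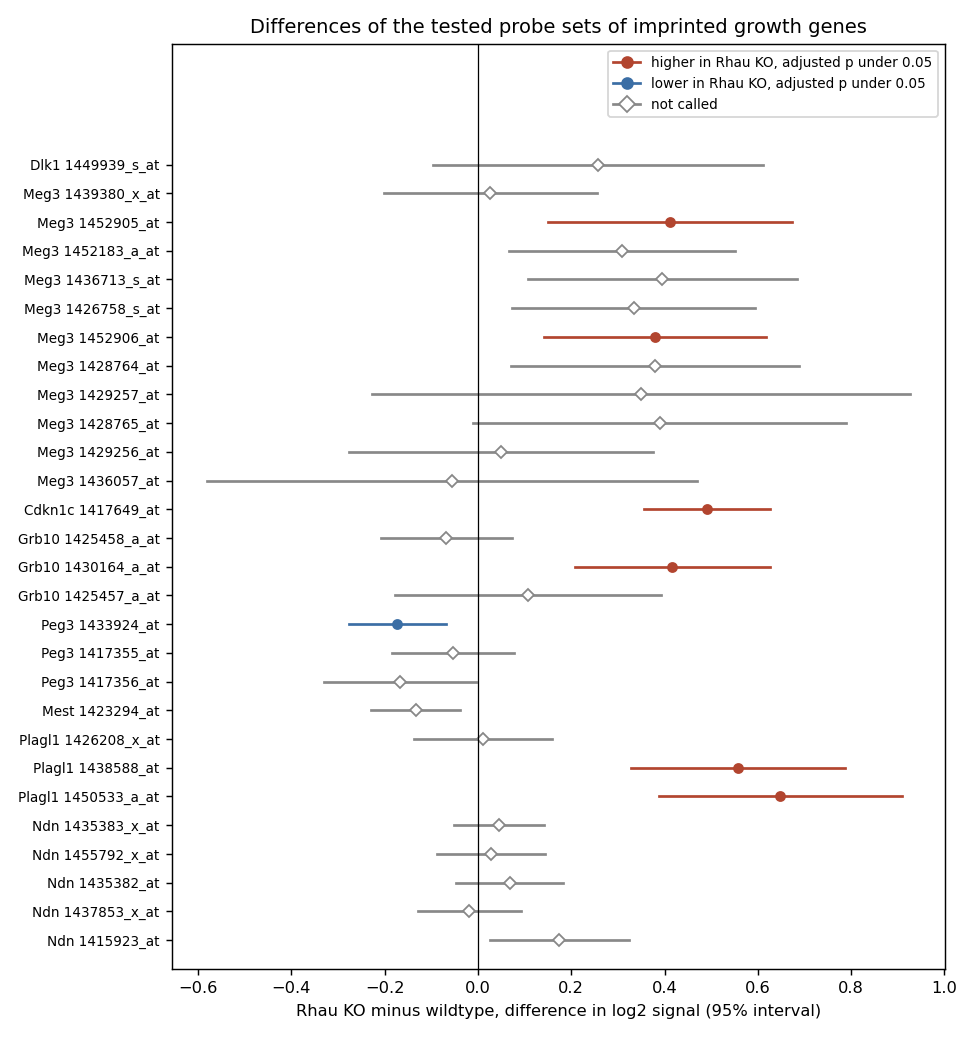
Difference in log2 signal, Rhau KO minus wildtype, with its 95% interval for each of the 28 tested probe sets, grouped by gene and ordered within a gene by mean signal. Filled circles are the 7 called probe sets and open diamonds the 21 not called. The Meg3 probe sets lie between 0.31 and 0.41, except for 3 at -0.06, 0.03 and 0.05.

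Meg3, a long non-coding RNA active on the maternal allele downstream of Dlk1, had 11 tested probe sets, of which 2 rose. Probe set 1452905_at read 12.96, 13.07 and 13.07 in the arrays labelled Rhau KO and 12.69, 12.88 and 12.29 in those labelled wildtype, a difference of 0.41 (SE 0.118, adjusted p = 0.0441). Probe set 1452906_at read 8.68, 8.53 and 8.50 in the arrays labelled Rhau KO and 8.28, 8.11 and 8.17 in those labelled wildtype, a difference of 0.38 (SE 0.107, adjusted p = 0.0412). On 6 of the 11 probe sets every array labelled Rhau KO lay above every array labelled wildtype, beside 19.4% of all tested probe sets. The 2 calls are near the threshold. Leaving out 1 array kept 1452905_at in 1 of 6 fits, that without wildtype replicate 2 (0.24 to 0.54), and 1452906_at in 0 of 6 (0.33 to 0.43). Both were lost with the Y-linked covariate (0.80 with adjusted p = 0.207, and 0.55 with adjusted p = 0.387). With each array centred on its median, limma called neither (0.34 with adjusted p = 0.0962, and 0.31 with adjusted p = 0.103).

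Wildtype replicate 3 was the lowest array on 5 of the brighter Meg3 probe sets. On 1436713_s_at the values were 12.03, 12.14 and 12.04 in the arrays labelled Rhau KO and 11.75, 11.97 and 11.31 in those labelled wildtype, a difference of 0.40 (adjusted p = 0.0705). The probe sets 1452183_a_at and 1426758_s_at differed by 0.31 (adjusted p = 0.0903) and 0.33 (adjusted p = 0.0878). Without wildtype replicate 3 the differences of 1436713_s_at, 1452183_a_at and 1426758_s_at were 0.21, 0.15 and 0.17. Without wildtype replicate 2 both 1436713_s_at (0.54, adjusted p = 0.0206) and 1452183_a_at (0.41, adjusted p = 0.0469) passed the test. In the 3 mixed arrays 1436713_s_at, 1452183_a_at and 1426758_s_at differed by 0.78, 0.59 and 0.61. Wildtype replicate 3, the lowest array on these, is the only wildtype array there. These differences are larger by that choice and cannot be read as further support. Of the rest, 1428764_at, 1428765_at and 1429257_at differed by 0.38, 0.39 and 0.35, and 1439380_x_at, 1429256_at and 1436057_at by 0.03, 0.05 and -0.06, all without a call. Without wildtype replicate 1, 1429257_at differed by 0.000122 and 1428765_at by 0.20. The probe sets all belong to 1 gene, and several rest on the same expressed sequence. They also share their arrays, and are not replicates.

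Dlk1, a transmembrane inhibitor of adipocyte differentiation related to Notch ligands, had 1 tested probe set. It read 9.61, 9.74 and 9.66 in the arrays labelled Rhau KO and 9.19, 9.17 and 9.87 in those labelled wildtype. Wildtype replicate 3, the array with the lowest Meg3 signal on 1452905_at, had the highest Dlk1 signal of all 6 arrays, and the groups overlapped. The difference was 0.26 (95% interval -0.10 to 0.61, adjusted p = 0.322). Without wildtype replicate 3 it was 0.49 and passed the test (adjusted p = 0.0100), and without wildtype replicate 1 or 2 it was 0.15 and 0.14 (adjusted p = 0.650 and 0.655). With the Y-linked covariate it was -0.44 without a call. In the 3 mixed arrays, where wildtype replicate 3 is the only wildtype array, it was -0.20.

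Rian and Mirg, non-coding RNAs that follow Meg3 in the same cluster and host small nucleolar RNAs and microRNAs, had 4 and 2 tested probe sets, with 0 called; both genes were picked for their position after their values were seen. At an unadjusted p under 0.05 the limma fit had Rian 1427580_a_at and 1440001_at. Rian 1440001_at read 9.37, 9.21 and 9.45 in the arrays labelled Rhau KO and 9.02, 9.13 and 8.36 in those labelled wildtype, a difference of 0.51 (adjusted p = 0.0784). Rian 1427580_a_at differed by 0.26 (adjusted p = 0.0636) with groups apart, and wildtype replicate 3 was the lowest array on both. Mirg differed by 0.16 and 0.29.

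**Figure D3:**
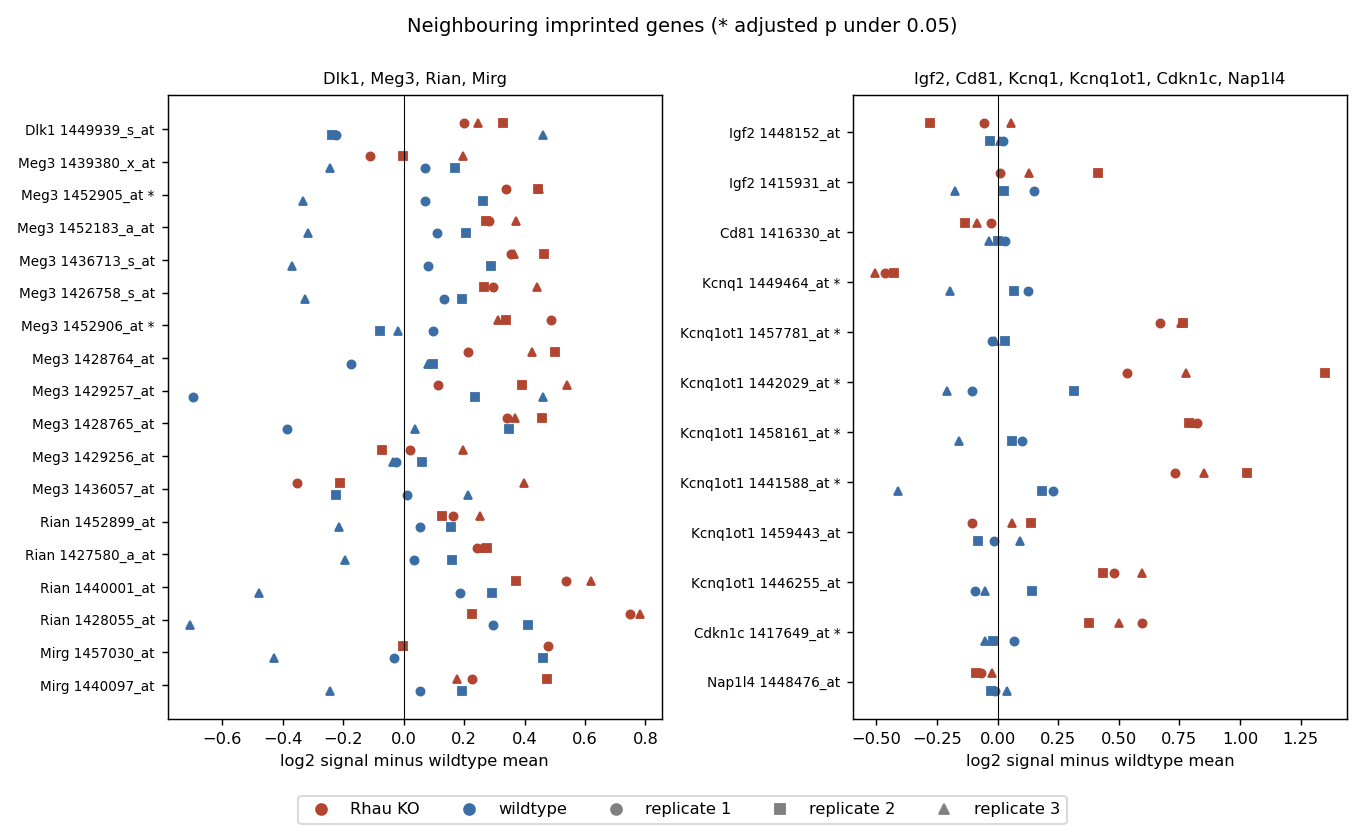
Log2 signal of each array minus the wildtype mean of the same probe set, for tested probe sets of Dlk1 and its neighbours (left) and of genes around Cdkn1c (right). Red symbols are Rhau KO arrays, blue symbols wildtype arrays and asterisks called probe sets. Wildtype replicate 3 (blue triangle) is highest for Dlk1 and lowest for most bright Meg3 and Rian probe sets. Cdkn1c and 5 of 6 Kcnq1ot1 probe sets, 4 of them called, have all Rhau KO arrays right of all wildtype arrays. Of all tested probe sets 19.4% do.

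Peg3, a zinc finger protein active on the paternal allele that is known in the mouse for effects on fetal growth and maternal behaviour, fell on 1 of 3 tested probe sets. Probe set 1433924_at read 13.40, 13.28 and 13.33 in the arrays labelled Rhau KO and 13.52, 13.50 and 13.51 in those labelled wildtype. The groups did not overlap, and the difference was -0.17 (SE 0.0469, adjusted p = 0.0348), 1.13-fold lower. The call was kept in 1 of 6 fits without 1 array, that without Rhau KO replicate 1 (-0.20 to -0.14), and lost with the Y-linked covariate (-0.12, adjusted p = 0.716), in the 3 mixed arrays (-0.17), with quantile normalization, with no filter and without the variance trend. Probe sets 1417355_at and 1417356_at differed by -0.05 (95% interval -0.18 to 0.08) and -0.17 (-0.33 to -0.0038) without a call.

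Mest, a paternally active gene of the alpha/beta hydrolase family that marks mesoderm, had 1 probe set, at 14.44, 14.35 and 14.42 in the arrays labelled Rhau KO and 14.55, 14.53 and 14.53 in those labelled wildtype. All arrays labelled Rhau KO lay below all labelled wildtype, by 0.13 (SE 0.0434, adjusted p = 0.0676), and the call was not made, except with each array centred on its median (-0.20). This signal too is near the top of the scale, where saturation was not tested. Ndn, which encodes necdin, a growth suppressor of neurons and other cells that is active on the paternal allele, had 5 tested probe sets with 0 called. The limma fit had 1 of them at an unadjusted p under 0.05, 1415923_at, at 12.44, 12.46 and 12.21 in the arrays labelled Rhau KO and 12.23, 12.19 and 12.16 in those labelled wildtype, a difference of 0.17 (adjusted p = 0.112). Without Rhau KO replicate 3, the lowest of its label there, that difference was 0.25 and passed the test (adjusted p = 0.0154). The other 4 Ndn probe sets differed by between -0.02 and 0.07.

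A list of 60 other mouse genes known as imprinted had 75 tested probe sets in 40 genes. Imprinting can be limited to some tissues, and whether each gene is imprinted in the embryonic heart was not checked. Of the rest, 10 genes had no probe set of their own and 10 lay below the filter only. In the arrays labelled Rhau KO 12 probe sets rose and 5 fell, beside 6.75% and 6.88% of all tested probe sets, with a median difference of 0.09. The 12 belong to Kcnq1ot1, Airn, Ddc, Gatm, Commd1, Ube3a and Ppp1r9a and the 5 to Kcnq1, Asb4, Pon2 and Pon3.

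Kcnq1ot1, the long non-coding RNA of the cluster that holds Cdkn1c, is transcribed from the paternal allele antisense to Kcnq1 and is known in the mouse to silence Cdkn1c in cis. It rose on 4 of 6 tested probe sets, by 0.73, 0.89, 0.81 and 0.87 (adjusted p = 7.25e-05, 0.0129, 0.000276 and 0.00828). On 1457781_at the values were 10.53, 10.63 and 10.62 in the arrays labelled Rhau KO and 9.84, 9.89 and 9.85 in those labelled wildtype, groups far apart next to their spread. On 1458161_at they were 9.87, 9.83 and 9.85 in the arrays labelled Rhau KO and 9.14, 9.10 and 8.88 in those labelled wildtype, and this call was kept in each of 17 fits, the Y-linked covariate included. The 2 other probe sets differed by 0.50 and 0.03 without a call. Kcnq1, a potassium channel gene, read 8.05, 8.09 and 8.01 in the arrays labelled Rhau KO and 8.64, 8.58 and 8.32 in those labelled wildtype, a difference of -0.47 (adjusted p = 0.0267) that was kept in 1 of 6 fits without 1 array. Kcnq1ot1 and Cdkn1c were thus both higher in the same arrays. Igf2, the paternally active growth factor of the neighbouring domain, read 14.54, 14.32 and 14.66 in the arrays labelled Rhau KO and 14.62, 14.57 and 14.61 in those labelled wildtype, a difference of -0.09 (adjusted p = 0.443), and its dimmer probe set differed by 0.19 without a call.

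Airn, the long non-coding RNA antisense to Igf2r, rose on 3 of 4 tested probe sets by 0.30, 0.35 and 0.66 (adjusted p = 0.00738, 0.0320 and 0.00692). On 1451634_at it read 12.16, 12.18 and 12.33 in the arrays labelled Rhau KO and 11.92, 11.97 and 11.90 in those labelled wildtype. Both probe sets of Igf2r, the receptor that clears IGF2, differed by -0.09 and -0.08 without a call. Which strand each probe set of these antisense pairs reads was not checked. Ddc, the neighbour of Grb10, encodes aromatic amino acid decarboxylase, and a variant of it is imprinted in the embryonic mouse heart. It read 11.46, 11.63 and 11.53 in the arrays labelled Rhau KO and 10.63, 10.94 and 10.49 in those labelled wildtype, a difference of 0.85 (1.81-fold, adjusted p = 0.000489). Gatm, an enzyme of creatine synthesis, rose by 0.89 (1.85-fold, adjusted p = 0.000378). Commd1, Ppp1r9a and the ubiquitin ligase gene Ube3a rose by 0.33, 0.29 and 0.23, on 1 of 2, 1 of 4 and 1 of 5 tested probe sets.

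Around Peg10, which was too dim to test, calls went both ways, with 1 probe set higher, that of Ppp1r9a, and 4 lower. The paraoxonase genes Pon3 and Pon2 fell by 0.47 on 1 probe set (adjusted p = 0.00938) and by 0.24 and 0.28 on 2 (adjusted p = 0.0246 and 0.0481). Asb4, a ubiquitin ligase adaptor, fell by 0.26 on 1 of 2 tested probe sets. In clusters with no call the up to 2 genes of highest signal differed, on their brightest probe sets, by -0.07 for Gnas, -0.06 for Mcts2, 0.05 for H13, 0.20 for Blcap, 0.14 for Nnat, -0.12 for Slc38a4, -0.13 for Inpp5f, -0.02 for Copg2, -0.38 for Klf14, 0.31 for Trappc9, -0.10 for Sfmbt2 and -0.0045 for Zdbf2. With the Y-linked covariate 1 of the 17 calls remained, that of Kcnq1ot1 1458161_at. The calls for Kcnq1, Asb4, Pon2, Ppp1r9a, Ube3a, Airn 1456139_at and Kcnq1ot1 1442029_at were lost without at least 1 array.

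Partners of the members in growth control and imprint upkeep had 51 tested probe sets in 22 genes, of which 5 rose and 2 fell, 13.7% beside 13.6% of all probe sets. Ctcf, which binds the control region between H19 and Igf2, rose on both probe sets by 0.48 and 0.21 (adjusted p = 0.00147 and 0.0272), with 11.03, 10.85 and 10.86 in the arrays labelled Rhau KO and 10.49, 10.44 and 10.37 in those labelled wildtype on 1449042_at. Igf1r, the IGF1 receptor, rose by 0.45 on 1428967_at (adjusted p = 0.00148) and differed by -0.57 on 1452108_at without a call. The cyclin-dependent kinase gene Cdk4 rose by 0.21 on 1 of 3 probe sets and the DNA methyltransferase gene Dnmt3a by 0.22 on 1 of 5. Cdkn1a, a kinase inhibitor of the same family as Cdkn1c, fell by 0.47 on 1424638_at (adjusted p = 0.0211) and differed by 0.03 on its other probe set. Adcyap1r1, the receptor of the peptide PACAP, fell by 0.48 on 1429022_at and differed by -0.15 on 1450799_at without a call. Trim28, the partner of ZFP57, differed by 0.07 on its brightest probe set, and Ccnd1, Igf2 and Igf2r by 0.06, -0.09 and -0.09, without a call.

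Among probe sets of other single genes, the closest patterns over the 6 arrays, by Pearson r, were C1qtnf4 (0.9961) and Nap1l1 (0.9954) for Cdkn1c, and Mrpl35 (0.9993) and Oaz2 (0.9987) for Peg3. For the brightest probe sets of the others they were Fuca1 (0.9957) and Rufy3 (0.9911) for Meg3, Tmsb10 (0.9934) and Inip (0.9927) for Grb10, and Rps14 (0.9976) and Fuca1 (0.9926) for Plagl1. With 6 arrays such values are common: 1125 probe sets correlated above 0.9 with Cdkn1c, 1192 with Peg3 and 89 with Meg3.

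**Figure D4:**
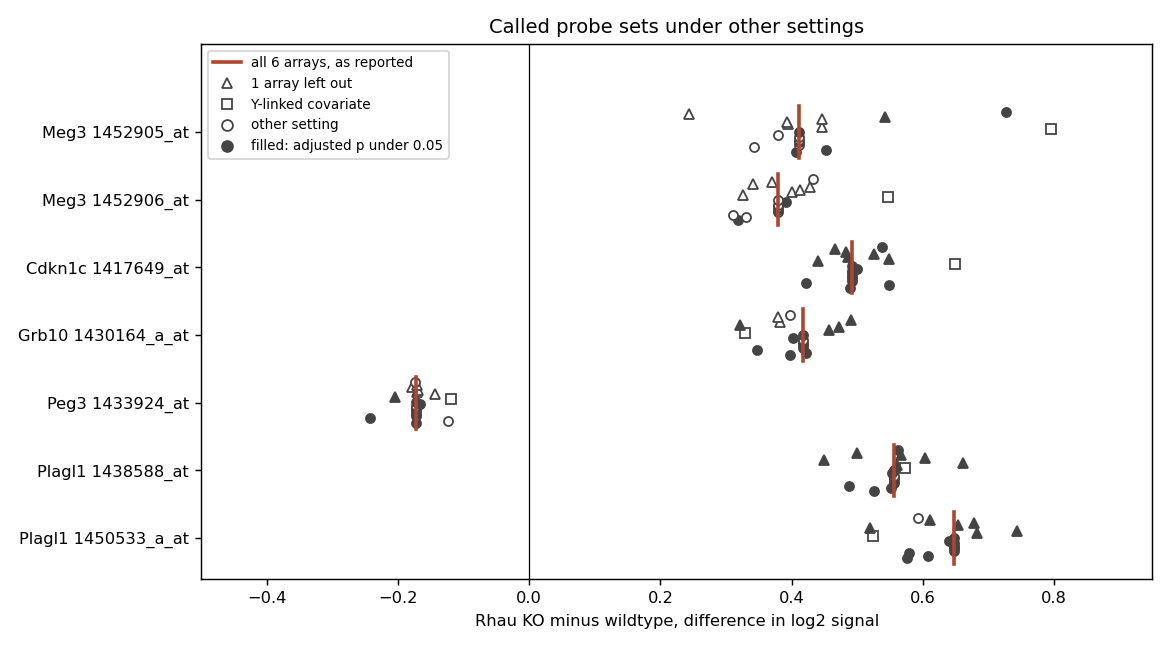
Difference in log2 signal of the 7 called probe sets with all 6 arrays (red line) and under each alternative (symbols; filled where adjusted p is under 0.05, triangles with 1 array left out, squares with the Y-linked covariate, circles otherwise). No symbol crosses 0, Cdkn1c and both Plagl1 probe sets keep every filled triangle, and every square is open.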

How the data were processed

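Per the labels' protocols, RNA was extracted from dissected hearts with Trizol, and biotin-labelled cRNA was made with an Affymetrix 3' kit. Each sample is 1 array. The authors deposited 1 log2 signal per probe set and array; MAS5 made it, per the submitters' processing notes, with a version not given in the sources used here. On the linear scale the 2% trimmed mean was 500 on every array, which shows a global scaling. Medians of the log2 signal were 6.75, 6.80 and 6.78 in the arrays labelled Rhau KO and 6.68, 6.70 and 6.74 in those labelled wildtype. Detection calls were not used here. Array data carry no depth, and the number of arrays limits precision. The deposited values were used with no further normalization.

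All 6 columns matched a sample, and 64 control probe sets were left out of 45101. By the platform annotation 34945 of the others carry 1 gene symbol, 932 carry several and 9160 carry none. All 9 measured members kept their symbols in RefSeq (GRCm38.p6). The lowest 40% of probe sets by mean signal were left out. The remaining 27022 were tested one by one with limma 3.58.1 in R 4.3.3 (lmFit, eBayes with trend, Benjamini-Hochberg, two-sided). The test was tried on simulated arrays first. It recovered 44.8% of 1.5-fold, 74.6% of 2-fold and 93.9% of 4-fold changes. A probe set without a call may therefore still differ by a small change. Named are all members, the called genes of the 2 gene lists with the brightest uncalled ones, and the closest patterns. Members, lists and tests were chosen with earlier results of these data known. Alternatives covered scaling, filters, variance models, array weights, replicate blocks, left-out arrays, 1 probe set per gene and Y-linked signal as a covariate; a fit on the 3 mixed arrays alone was added after seeing the data. Tables and plots used Python 3.11.15, pandas 2.3.3 and matplotlib 3.10.9.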

Additional observations from a re-analysis of the deposited data

How the results depend on the processing

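None of the 7 called member probe sets changed sign in the 121 refits, 76 of which kept the call and 45 lost it. Member probe sets called higher (6 as reported) numbered 4 with median centring, 1 with 1 probe set per gene and 2 without the variance trend. With the Y-linked covariate they numbered 0, and without 1 array 3 to 7. Those called lower (1 as reported) numbered 2 with median centring, 0 with quantile normalization, with no filter, without the trend, with the covariate and in the 3 mixed arrays (Xist as well as Y-linked transcripts), and 0 to 1 without 1 array. Other imprinted probe sets called higher (12) numbered 6 with 1 probe set per gene, 5 without the trend, 1 with the covariate and 9 to 12 without 1 array. Those called lower (5) numbered 2 without the trend, 3 with the replicate block, 0 with the covariate, 0 in the 3 arrays and 1 to 3 without 1 array. Over all probe sets the counts were 1824 higher and 1858 lower as reported, 886 and 903 without the trend, 28 and 110 with the covariate, 501 and 515 in the 3 arrays, 1007 higher with median centring, 1018 higher with 1 probe set per gene, and 1046 to 1283 higher and 1139 to 1574 lower without 1 array. Higher calls were 49.5% of all calls as reported 28.5% with median centring and 20.3% with the covariate. With the covariate the median SE of the tested member probe sets was 0.224, against 0.104 without it. With 1 probe set per gene fewer probe sets are tested; the cause of the other shifts was not tested.

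Deviations of same-numbered arrays correlated at -0.000279, 0.0416 and 0.00549, and those of different-numbered arrays at -0.0448 to 0.0373. With 3 arrays per label, such values cannot decide whether the replicate numbers pair the arrays. With the replicate block 6 member probe sets were higher and 1 lower, and the call for Meg3 1452906_at gave way to one for Meg3 1436713_s_at. It gave 13 higher and 3 lower among other imprinted probe sets, where Pon2 1450686_at and Asb4 1433919_at lost their calls.

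Signs turned only for probe sets that were called neither as reported nor under the setting. With the Y-linked covariate these were Dlk1 1449939_s_at (-0.44), Meg3 1429257_at (-0.65), Meg3 1429256_at (-0.0228), Grb10 1425457_a_at (-0.27), Peg3 1417355_at (0.0563) and Ndn 1437853_x_at (0.00528). In the mixed arrays, a setting chosen after seeing the data, they were Dlk1 1449939_s_at (-0.20), Meg3 1429257_at (-0.21), Grb10 1425457_a_at (-0.12), Plagl1 1426208_x_at (-0.0222) and Ndn 1437853_x_at (0.0253). With median centring they were Meg3 1439380_x_at (-0.0422), Meg3 1429256_at (-0.0199), Plagl1 1426208_x_at (-0.0581), Ndn 1435383_x_at (-0.0239), Ndn 1455792_x_at (-0.0405) and Ndn 1435382_at (-0.000791). With quantile normalization they were Meg3 1429256_at (-0.0328) and Ndn 1437853_x_at (0.0126). With array weights it was Meg3 1439380_x_at (-0.00115). Without 1 array the differences ran from -0.0947 to 0.11 for Meg3 1439380_x_at, -0.0250 to 0.11 for Meg3 1429256_at, -0.28 to 0.0927 for Meg3 1436057_at, -0.13 to 0.00248 for Grb10 1425458_a_at, -0.0261 to 0.20 for Grb10 1425457_a_at, -0.0879 to 0.000939 for Peg3 1417355_at, -0.0433 to 0.0949 for Plagl1 1426208_x_at, -0.00519 to 0.0560 for Ndn 1455792_x_at and -0.0451 to 0.00787 for Ndn 1437853_x_at.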
